A study of Homo sapiens with 2 samples.

Results

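Glutathione S-transferases (GSTs) were examined in liver progenitors made from CyT49, a human embryonic stem cell line. The 10 genes listed for the family were GSTA1, GSTA2, GSTA3, GSTA4, GSTM2, GSTM3, GSTM4, GSTP1, GSTO1 and GSTT2B, found by symbol after the version of each gene identifier was removed. All 10 had a row among the 57158 genes of the table. The list is not the whole family: 11 further GST genes had a value and are given as relatives. The single group held 2 libraries, titled replicates 1 and 2. The cells were definitive endoderm at day 2 and then spent 6 days in suspension in RPMI medium with 50 ng/ml BMP4, 10 ng/ml FGF2 and 0.2% serum, which makes day 8. Every cell came from this line and this treatment, and no untreated, earlier or adult liver sample was analysed here, so what follows is a set of levels, with no change between conditions. Separate cultures are not mentioned for the libraries, whose spread may thus be technical.

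GSTs join the tripeptide glutathione to reactive, electrophilic compounds, which makes them more soluble and marks them for export. The soluble enzymes work as dimers and fall into classes that include alpha, mu, pi, omega, theta and zeta. A kappa enzyme sits in mitochondria and peroxisomes and a separate membrane family (MAPEG) in the endoplasmic reticulum. In adult liver the alpha class is an abundant part of hepatocyte cytosol, and the pi enzyme is known from fetal liver, bile duct cells and many other epithelia.

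The unit of every level is RPKM, in which reads are divided by the length of the gene and by the depth of the library, which allows levels of different genes to be compared. Values under 0.5 RPKM are all listed as 0.1 in the deposited table, and such a gene is called at the floor. Single-exon genes, whose RPKM move in steps of 1 read, gave a depth of 25182071 reads for library 1 and 25263820 for library 2. A transcript of 1000 bases at 1 RPKM thus had 25.2 reads in library 1. The libraries differed by 1.09 times the variance of read counting alone over 955 single-exon genes, and they are counted as 1 sample. Both values are given for each member, and no test between groups was possible.

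The sequences below are shown because the alpha and pi genes carry most of the signal and because GSTA1 and GSTA2 are near copies in their coding sequence and promoter. The first pair is a stretch of 60 bases of coding sequence, from position 314 to 373 counted from the A of the start codon, read from the GENCODE 44 transcripts on GRCh37. Capitals mark the 7 bases that differ between the genes in this stretch.
GSTA1 coding: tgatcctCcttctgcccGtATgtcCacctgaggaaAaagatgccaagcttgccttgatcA
GSTA2 coding: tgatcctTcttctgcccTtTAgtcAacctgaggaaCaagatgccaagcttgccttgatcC

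Over the whole coding sequence of 669 bases the genes differed at 22 positions (96.7% identity), and the longest stretch without a difference was 209 bases. The stretch shown was the one with the most differences. A read that falls inside the long identical stretch cannot be assigned to either gene.

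The promoters of the same pair, 250 bases up to the transcription start on the minus strand of chromosome 6 in GRCh38.p14 (RefSeq), are nearly identical as well. GSTA2 lies at chr6:52763476-52763725 and GSTA1 at chr6:52803817-52804066, and capitals mark the 7 bases that differ.
GSTA2 promoter: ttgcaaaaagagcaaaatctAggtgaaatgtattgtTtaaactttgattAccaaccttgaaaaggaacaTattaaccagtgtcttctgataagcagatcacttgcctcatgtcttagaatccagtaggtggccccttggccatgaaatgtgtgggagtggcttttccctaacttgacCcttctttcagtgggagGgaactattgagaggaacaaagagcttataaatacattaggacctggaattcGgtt
GSTA1 promoter: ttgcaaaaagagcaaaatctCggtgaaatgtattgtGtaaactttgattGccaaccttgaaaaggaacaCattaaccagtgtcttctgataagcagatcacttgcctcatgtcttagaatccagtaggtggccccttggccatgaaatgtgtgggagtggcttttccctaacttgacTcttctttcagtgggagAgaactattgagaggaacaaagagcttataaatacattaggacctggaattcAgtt

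The GSTP1 promoter, on the plus strand at chr11:67583562-67583811 of the same build, is shown for contrast with the alpha pair. Capitals mark a match to the core of the antioxidant response element, the sequence bound by NRF2, a factor that responds to electrophiles.
GSTP1 promoter: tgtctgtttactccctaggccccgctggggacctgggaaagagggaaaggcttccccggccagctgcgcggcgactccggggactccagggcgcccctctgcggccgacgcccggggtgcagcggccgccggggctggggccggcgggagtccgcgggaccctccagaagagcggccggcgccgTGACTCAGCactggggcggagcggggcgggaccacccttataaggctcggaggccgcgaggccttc

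GST transcripts were present for most of the 10 genes but very unequally, with the pi gene far above the rest. Of the 10 genes, 9 reached 1 RPKM in both libraries, beside 59.8% of the 19344 protein-coding genes. Outside the 10, 4 of 8 other cytosolic GST genes and 5 of 7 mitochondrial and microsomal ones did. These 2 lists also hold genes outside the 11 relatives, such as HPGDS. At 10 RPKM or more in both libraries stood 4 of the 10, beside 20.2% of protein-coding genes. The median of the 10 was 2.91 on the log2(RPKM + 1) scale, against 1.78 for all protein-coding genes. No list was tested, since the members were chosen with earlier results of these data known.

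GSTP1, the only pi class gene and an enzyme of broad substrate range, was the highest member, with 238 RPKM in library 1 and 232 in library 2. Among the 10 it stood alone above 100 RPKM in both. It ranked 103rd among protein-coding genes and above 99.5% of them. These levels stand for about 4436 and 4342 reads on its transcript of 741 bases. GSTP1 alone made up 58.0% of the summed RPKM of the 10 genes and 51.5% of that of all 21 GST genes of the table. It is ENSG00000084207.11, on chromosome 11 from 67351213 to 67354127 on GRCh37, the build also called hg19 that all gene positions here use. The sample is bulk RNA, so fewer cells of a type and less RNA per cell cannot be told apart in this level.

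**Figure D1:**
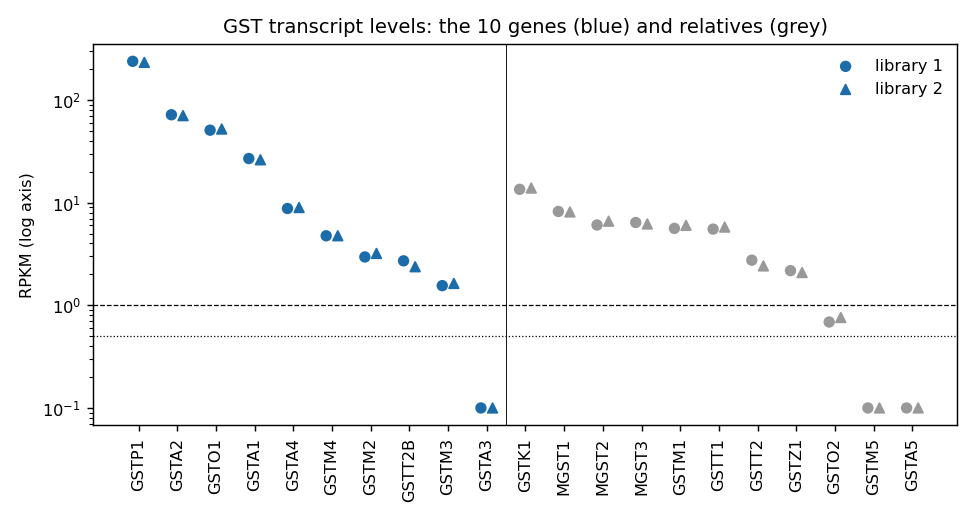
RPKM on a log axis for the 10 GST genes (blue) and 11 relatives (grey), with circles for library 1 and triangles for library 2. The dashed line is 1 RPKM and the dotted line 0.5 RPKM, below which values are listed as 0.1. GSTP1 stands highest at 238 and 232 RPKM, and GSTA3, GSTM5 and GSTA5 are at the floor.

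In the alpha class, the class that hepatocytes are known for, GSTA2 and GSTA1 were high, GSTA4 was lower and GSTA3 was at the floor. GSTA2 had 71.7 RPKM in library 1 and 70.3 in library 2, above 98.0% of protein-coding genes. GSTA1 had 26.9 and 26.1 RPKM, above 93.1%. The genes differ by far more than the libraries do: the ratio of GSTA2 to GSTA1 was 2.67 in library 1 and 2.69 in library 2, and the counting interval of the mean ratio ran from 2.53 to 2.84 at 95%. That interval covers counting error only, and it rests on about 2206 reads for GSTA2 and 824 for GSTA1 in library 1, taken from the length of the main annotated transcript.

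Part of the GSTA2 and GSTA1 transcripts cannot be told apart by sequence. Of all windows of 50 bases along the GSTA2 transcript, 22.0% occurred also in a GSTA1 transcript. Of those of GSTA1, 22.1% occurred in a GSTA2 transcript and 26.0% in any other gene. With windows of 100 bases the shares between the pair fell to 9.80% for GSTA2 and 9.83% for GSTA1. The sources used here give neither the read length nor the treatment of reads with several matches. The effect of the shared windows on the ratio was not tested.

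GSTA4, which prefers 4-hydroxynonenal and similar aldehydes from lipid peroxidation, stood at 8.76 RPKM in library 1 and 8.95 in library 2. Its coding sequence was 63.8% identical to that of GSTA1, and none of its 50-base windows occurred in another gene, unlike those of the pair. GSTA3, known for its steroid isomerase activity in steroid-producing tissue, was under 0.5 RPKM in both libraries. It lies in the same cluster and is 92.5% identical to GSTA1 in coding sequence, and 2.10% of its 50-base windows occurred in another gene. A gene of 1000 bases at that limit would still have had 12.6 reads in library 1.

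The alpha genes lie head to tail on the minus strand of chromosome 6. GSTA2 (ENSG00000244067.1) runs from 52614885 to 52628273, GSTA1 (ENSG00000243955.1) from 52656169 to 52668658, GSTA3 (ENSG00000174156.8) from 52761437 to 52774496 and GSTA4 (ENSG00000170899.6) from 52842746 to 52860102. The start of GSTA1 lies 40.4 kb from that of GSTA2, and between GSTA1 and GSTA4 lie GSTA5 and GSTA3, both at the floor. All 7 alpha pseudogenes of the cluster were at the floor in both libraries, GSTA12P between the expressed pair included. The stretch from GSTA1 to GSTA4 thus held only genes and pseudogenes listed under 0.5 RPKM among those of the alpha class. Outside this cluster, 2 of the other GST pseudogenes were above the floor in both libraries: GSTO3P, given with GSTO1, and GSTM2P1 at 1.52 and 1.03 RPKM.

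**Figure D2:**
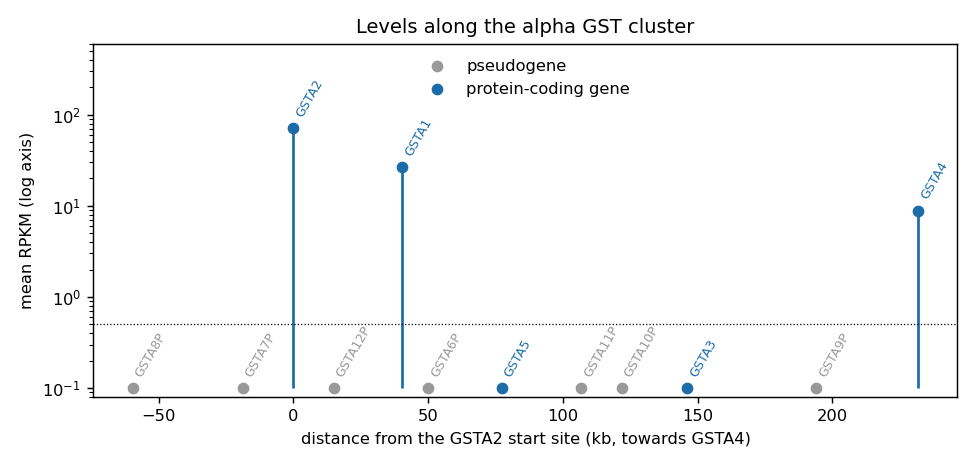
Mean RPKM of the 2 libraries on a log axis for the alpha GST genes (blue) and pseudogenes (grey), by distance in kb of each start site from that of GSTA2. The dotted line is 0.5 RPKM. GSTA2, GSTA1 and GSTA4 rise above it, and GSTA5, GSTA3 and the 7 pseudogenes lie at the floor.

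GSTO1, an omega enzyme that reduces dehydroascorbate and removes glutathione from proteins rather than conjugating drugs, was the third highest member. Its 50.8 RPKM in library 1 and 52.1 in library 2 lay between GSTA2 and GSTA1, and both gaps were wider than the difference between the libraries. It is ENSG00000148834.8, on chromosome 10 from 105995114 to 106027217. Its neighbour and relative GSTO2 stood at only 0.69 and 0.76 RPKM. GSTO1 shared 4.06% of its 50-base windows with the pseudogene GSTO3P, which had 1.16 RPKM in library 1 and 0.72 in library 2.

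The mu class, which like alpha conjugates many drugs and carcinogens, lay near the middle of protein-coding genes and below GSTA4. GSTM4 had 4.75 RPKM in both libraries, above 62.9% of protein-coding genes. GSTM2 had 2.96 in library 1 and 3.20 in library 2, above 54.1%. GSTM3, a mu enzyme best known from brain and testis, had 1.55 and 1.63, above 44.3%.

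GSTM1, a relative outside the list, was the highest mu gene at 5.61 and 6.0 RPKM, and GSTM5 was at the floor. Of the 50-base windows of GSTM2, 45.8% occurred also in GSTM1, and the annotation used here lets the 2 genes overlap on the same strand. GSTM4 shared 18.9% of its windows with other genes and GSTM3 2.01%. GSTM3 overlaps GSTM5 on the opposite strand, and the sources used here do not state whether counting used the strand. GSTM4 (ENSG00000168765.11) runs from 110198721 to 110208118 on chromosome 1, GSTM2 (ENSG00000213366.7) from 110210644 to 110252173 and GSTM3 (ENSG00000134202.6) from 110276554 to 110283660.

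GSTT2B, a theta enzyme, had 2.71 RPKM in library 1 and 2.37 in library 2, but this level cannot be told from that of its copy GSTT2. GSTT2 had 2.75 and 2.42 RPKM, and both genes were lower in library 2. Of the GSTT2B windows of 50 bases, 87.4% occurred also in GSTT2, and 76.9% of those of 100 bases did. About 75.6 and 66.4 reads stood behind the GSTT2B values. GSTT1, the theta gene with no shared 50-base window, stood at 5.52 and 5.78 RPKM. GSTT2B is ENSG00000133433.6, on chromosome 22 from 24299601 to 24303382.

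**Figure D3:**
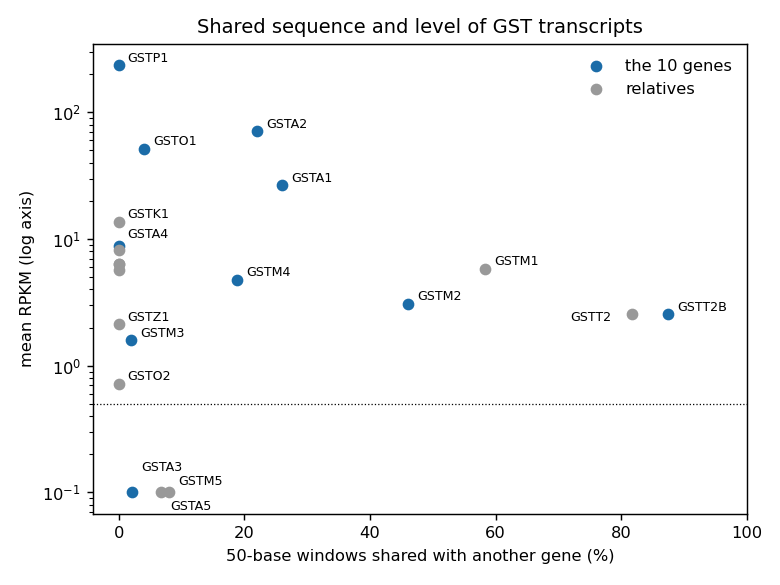
Share of 50-base windows of each GST transcript that occur in a transcript of another gene, in percent, against mean RPKM on a log axis, for the 10 genes (blue) and relatives (grey, of which MGST1, MGST2, MGST3 and GSTT1 at 0% are not named). GSTT2B at 87.4% and GSTM2 at 46.1% share most among the 10, while GSTP1 and GSTA4 share none.

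The order of the members from high to low was GSTP1, GSTA2, GSTO1, GSTA1, GSTA4, GSTM4, GSTM2, GSTT2B, GSTM3 and GSTA3. The library values of neighbours in this order did not overlap for any pair. For GSTM2 over GSTT2B, however, the ratio of 1.21 had a counting interval from 0.972 to 1.51, so these neighbours are not ordered at this depth. The other ratios between neighbours above the floor ran from 1.38 (GSTA2 over GSTO1) to 3.31 (GSTP1 over GSTA2), with counting intervals that stayed above 1. These intervals take no account of 50-base windows shared with other genes, 87.4% for GSTT2B and 46.1% for GSTM2. The places of GSTT2B and GSTM2 in the order are thus less sure than their intervals show. Between libraries the members moved little. The log2 ratio of library 2 over library 1 was -0.04 for GSTP1 and -0.19 for GSTT2B, the most extreme of the 9. Protein-coding genes of similar level spread from -0.03 to 0.03 around GSTP1 and from -0.20 to 0.20 around GSTT2B (5th to 95th percentile), so GSTP1 lay just outside its range and GSTT2B inside.

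Grouped by class, pi held 51.5% of the summed RPKM of the 21 GST genes, alpha 23.3%, omega 11.4%, MAPEG 4.56%, mu 3.34%, kappa 3.0%, theta 2.36% and zeta 0.47%. The 50-base windows shared with other genes were unequal between classes, from 0% for GSTP1 to 87.4% for GSTT2B. Their effect on the class shares was not tested. The relatives with most signal were GSTK1, the kappa enzyme, at 13.5 and 13.9 RPKM, and MGST1, the membrane enzyme of the endoplasmic reticulum, at 8.20 and 8.11. MGST2 had 6.06 and 6.59 RPKM and MGST3 6.40 and 6.19. GSTZ1, the tyrosine breakdown enzyme maleylacetoacetate isomerase, had 2.18 and 2.08. All relatives lay below GSTA1.

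The promoters of the members differed widely in base composition. Entries were found for 9 of the 10 members. In the 250 bases before the start, GSTP1 had 74.8% GC and 28 CpG dinucleotides, while GSTA2 had 40.4% and 1, GSTA1 40.8% and 1, and GSTA3 43.6% and 0. The median over 35116 promoters was 58% GC and 11 CpG. GSTO1 had 60.0% GC and 14 CpG, GSTA4 50.4% and 11, GSTM4 62.4% and 18, GSTM2 65.6% and 14, and GSTM3 40.0% and 1. GSTA2 and GSTM3 had equal CpG counts and unlike levels, as did GSTO1 and GSTM2. GSTP1 had both the most CpG of the 9 and the highest level. A relation between CpG count and level was not tested. The promoter of GSTA3 was 49.8% identical to that of GSTA1 after alignment, against 97.2% between GSTA1 and GSTA2.

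Short motifs were searched on both strands of the same window, and a match describes letters, not binding. The antioxidant response element core TGACNNNGC occurred in 3 of the 9 members with an entry, GSTP1, GSTO1 and GSTA4, beside 10.9% of all promoters. In GSTP1 it lay at -66 to -58 from the start, and its first 7 bases also match the AP-1 motif TGANTCA, found in 6.57% of promoters. The TATA box TATAAA lay at -30 to -25 in both alpha genes and at -216 to -211 on the opposite strand of GSTO1, beside 10.7% of all promoters. Variants of TATAAA were not searched, so a promoter without a match may hold one. None of the 7 bases that differ between the alpha pair fell inside these matches.

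Genes that make and recycle glutathione were mostly expressed at moderate level. Of the 14 listed, 12 reached 1 RPKM in both libraries, beside 59.8% of protein-coding genes, with a median of 5.06 RPKM. GSR, which regenerates reduced glutathione, had 27.4 and 27.5 RPKM, and GSS, the second enzyme of synthesis, had 17.9 and 16.4. The first and rate-limiting enzyme was lower: its catalytic subunit GCLC had 4.84 and 4.79 RPKM and its modifier subunit GCLM 1.29 and 1.22. The cystine carrier pair stood apart, with SLC3A2 at 33.1 and 33.8 and SLC7A11 at 3.05 and 2.98 RPKM. SLC3A2 also serves other amino acid carriers. CBS, which feeds cysteine synthesis, had 31.6 and 31.1 RPKM, and the glutathione-degrading CHAC1 and CHAC2 stayed under 1 RPKM.

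The list of peroxidases, glutaredoxins, peroxiredoxins and thioredoxin genes had a higher median than the GST genes. All 18 glutathione peroxidases, glutaredoxins, peroxiredoxins and thioredoxin genes listed reached 1 RPKM in both libraries, beside 59.8% of protein-coding genes. Their median was 37.8 RPKM against 6.81 for the 10 GST genes. PRDX1, a peroxiredoxin, had 236 and 234 RPKM, a level like that of GSTP1, and GPX4, which reduces lipid peroxides in membranes, had 161 and 159. The lowest were GPX7 (2.35 and 3.33), GLRX (1.88 and 1.92) and GLRX2 (1.95 and 1.67).

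Of the 16 genes listed for glutathione conjugate export and the mercapturate pathway, 13 were detected, beside 59.8% of protein-coding genes. The list holds genes that act on conjugates or mercapturates in any direction, not only those that form mercapturates. Their median was 4.40 RPKM. ABCC1, a conjugate pump of many tissues, had 13 and 13.4 RPKM, whereas ABCC2, the pump of the hepatocyte canalicular membrane, had 2.08 and 1.96, and ABCC3 was at the floor. ACY1 (15.5 and 14.8) and the dipeptidase DPEP1 (14.5 and 15.5) were highest. NAT8, which completes mercapturates in kidney and liver, was at the floor, as was GGT5.

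NRF2 and its partners were expressed, and their common targets ranged widely, down to the floor. Of the 20 listed, partners and targets together, 18 were detected, beside 59.8% of protein-coding genes. Their joint median was 4.94 RPKM. NFE2L2, the gene of NRF2, had 26.6 and 26.5 RPKM and its inhibitor KEAP1 14.4 and 15.3. The target NQO1 had 18 and 17.3 RPKM and TXNRD1 15.6 and 15.1, while AKR1C1 stood at 0.53 and 0.56 and OSGIN1 was at the floor. This list shares GCLC, GCLM, SLC7A11 and ABCC2 with those above TXNRD1 with the peroxidase list and AKR1B10 with the aldehyde list below.

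Other conjugating enzymes contrasted with the GST genes. Of 22 listed, 8 reached 1 RPKM in both libraries, beside 59.8% of protein-coding genes. Another 12 were not above the floor in both, beside 6754 of 19344 protein-coding genes, and the median was at the floor. All 8 glucuronosyltransferases listed, from UGT1A1 to UGT2B15, were at the floor, as were SULT2A1, SULT1B1, NAT2 and NNMT. Sequence shared among the glucuronosyltransferases was not computed, and the treatment of reads with several matches is not given. Whether this bears on their floor values was not tested. NQO2 (20.5 and 21.3 RPKM), EPHX1 (18.1 and 18.1) and EPHX2 (12.5 and 12.2) led the list, although these are a reductase and hydrolases that the list holds beside true conjugating enzymes. SULT1A3, at 11.6 RPKM in both libraries, has near-identical copies that can share its reads.

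**Figure D4:**
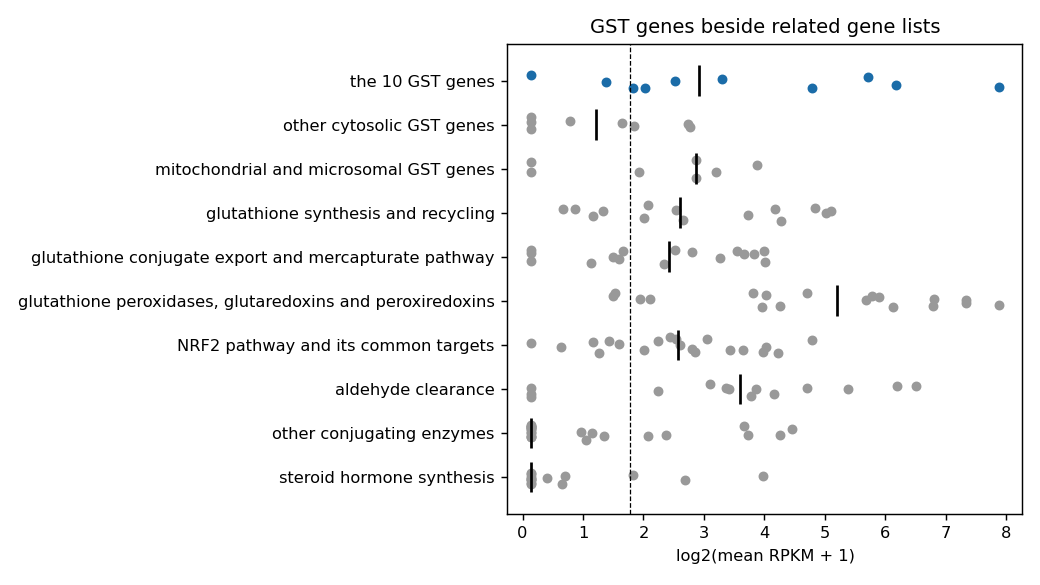
Levels as log2(mean RPKM + 1) for the 10 GST genes (blue) and 9 related lists (grey), 1 point per gene with vertical jitter, black bars at each list's median. The dashed line is the median of all protein-coding genes, 1.78. The GST genes have a median of 2.91, the peroxidase list 5.20, and the other conjugating enzymes and steroid synthesis lie at the floor by median.

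Genes that act beside GSTA4 and GSTA3 differed in detection, which was 59.8% over protein-coding genes. Of 14 aldehyde-clearing genes, 11 were detected with a median of 11.2 RPKM, led by ALDH1A1 (88.8 and 92.1) and ALDH2 (71.8 and 72.8), and ALDH3A1, ALDH1A2 and ALDH1A3 were at the floor. Of 14 steroid synthesis genes, 3 were detected, the electron donors POR (14.5 and 14.9), FDX1 (5.48 and 5.35) and FDXR (2.64 and 2.43), which serve many other reactions. HSD3B1, HSD3B2 and CYP17A1, enzymes that work with or around the steroid isomerase step, were at the floor with GSTA3.

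Of the liver factors and xenobiotic receptors, 11 of 15 were detected, beside 59.8% of protein-coding genes. HNF4A had 44.5 and 44.9 RPKM, CEBPA 42.6 and 42.1, and FOXA2 72.1 and 72.1. The drug-sensing receptor NR1I2 was at the floor, NR1I3 had 0.60 RPKM in library 1 and was at the floor in library 2, and the aryl hydrocarbon receptor AHR had 3.56 and 3.57.

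Markers bore on the label as follows, with 59.8% of all protein-coding genes detected. All 10 hepatoblast markers were detected, with AFP at 707 and 705 RPKM, against 2 of 9 mature hepatocyte markers, CPS1 and ARG1. Of 8 pluripotency markers 0 reached 1 RPKM, and POU5F1, NANOG and SOX2 were at the floor. Detected markers of other types were 4 of 8 for cholangiocytes, 4 of 9 for mesenchyme, 2 of 7 for endothelium, 2 of 8 for blood, 4 of 8 for trophoblast, 2 of 8 for intestine and 3 of 8 for pancreas. Single markers of these lists were high: CGA of the trophoblast list had 133 and 138 RPKM, VIM of the mesenchyme list 94.4 and 95.8, PRSS1 of the pancreas list 60.8 and 59.7, and VIL1 of the intestine list 30.3 and 29.7. The summed level of the cholangiocyte list was 32.8 and 34.4 RPKM. In that list SLC4A2 had 15.7 and 16.1 RPKM, SOX9 9.04 and 9.90, GGT1 4.78 and 4.72, and CFTR 2.56 and 2.95, while AQP1 had 0.66 and 0.64 and KRT7, SCTR and SLC5A1 were at the floor. KRT19 (406 and 411 RPKM) and EPCAM (124 and 123), which mark bile duct cells as well as hepatoblasts, were listed with the hepatoblast markers and are not in that sum. Bile duct cells are known to hold GSTP1, and the part of any cells of these types in the GSTP1 level was not tested.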

How the data were processed

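The authors deposited 1 RPKM value per gene and library for poly(A) RNA from strand-specific (dUTP) libraries. Per the submitters' processing notes, FastQC 0.10.1, STAR 2.3.0e and Cufflinks 2.2.0 were used with no step named for each, and the series text names hg19 and Sailfish; which tool gave the RPKM is not given in the sources used here. RPKM divides by 1 gene length, so isoform use and reads shared by copies can shift a level.

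Identifiers were joined without version to GENCODE 44 on GRCh37. Depth was read from single-exon genes, where 83.7% of values under 500 reads were whole within 0.02 in each library. Reads behind multi-exon genes are approximate (RPKM × main transcript length × depth), and PCR reads are not independent molecules, so intervals cover counting error only. The calculation of the spread between libraries was tested on simulated data. Detection means 1 RPKM or more in both libraries, and log levels used a pseudocount of 1. Coding and promoter sequences were aligned with Biopython 1.88.

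Members and lists were chosen with earlier results of these data known. Named genes are all members, all other GST genes and pseudogenes above the floor, and up to 4 highest and 3 lowest genes of each list; other genes were chosen after their values were seen. Symbols without a match have no value here. A listed factor and a motif searched for it are not reported here.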

Additional observations from a re-analysis of the deposited data

How the results depend on the processing

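With 1 sample and no groups, alternatives bear on levels only. The count of detected members was 9 at a limit of 0.5 RPKM and in either library alone. It was 5 at a limit of 5 RPKM, beside 6852 of 19344 protein-coding genes, and 4 at 10 RPKM, beside 20.2%. The members that fell short were mu and theta genes, GSTA3 and, at 10 RPKM, GSTA4. The median member level was 2.72 with a pseudocount of 0.1 and 2.70 with 0.01. The ratio of GSTA2 to GSTA1 was 2.62 after adding a pseudocount of 1, and 2.67 and 2.69 in the single libraries. The share of GSTP1 was 51.5% with all GST genes as denominator. Of the 22 gene lists, 11 changed their detected count by over 1.5 times at a limit of 5 RPKM and 2 at a limit of 0.5 RPKM. Depth limits the low members: counting error alone was about 11.9% for GSTT2B and 10.5% for GSTM2 in a library, and 1.51% for GSTP1.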

Other observations

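Genes that handle ascorbate and dehydroascorbate, the product and substrate of a reaction of GSTO1, were all above 1 RPKM. These were 7 of 7, GLRX of the peroxidase list included, beside 59.8% of protein-coding genes. The carriers of its oxidized form stood high, SLC2A3 at 375 and 379 RPKM and SLC2A1 at 48.1 and 47.7, whereas the carriers of ascorbate itself were lower, SLC23A2 at 7.32 and 7.15 and SLC23A1 at 2.87 and 2.92. P4HB and PDIA3, folding enzymes of the endoplasmic reticulum, had 175 and 173 and 124 and 121 RPKM. The glucose carriers also serve glucose, so these levels are no measure of ascorbate use.

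Genes next to the GST loci ranged widely. Of 19 with a value, 15 reached 1 RPKM in both libraries, beside 59.8% of protein-coding genes. Beside the theta genes on chromosome 22, MIF, a cytokine with tautomerase activity, had 380 and 384 RPKM and its relative DDT 17.4 and 19.5, against 2.71 and 2.37 for GSTT2B. DDT overlaps GSTT2 on the opposite strand. Beside the alpha cluster, TMEM14A had 9.02 and 9.87 RPKM and GCM1, a placental factor, was at the floor. LTC4S, a membrane relative of the GSTs that makes leukotriene C4, had 3.35 and 2.22 RPKM, and its counting error was not computed.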
